A study of Mus musculus with 6 samples.

Results

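The genes that encode subunits of the mitochondrial respiratory chain and of the ATP synthase were examined in E12.5 mouse testes. Control testes were compared with testes carrying a conditional knockout (cKO) of the glycogen regulator Ppp1r3c. Members were the rows whose symbols begin with Ndufa, Ndufb, Ndufc, Ndufs, Ndufv, Uqcr, Cox4i, Cox5, Cox6, Cox7, Cox8 or Atp5, together with the protein-coding genes of the mitochondrial chromosome (chrM). They numbered 104 of the 24470 rows of the count table. The nuclear rows comprised 82 subunits (37 of complex I, 8 of complex III, 20 of complex IV and 17 of complex V), 8 assembly factors of complex I (Ndufaf) that share the Ndufa prefix, and 1 pseudogene (Ndufs5-ps). Ndufa4 and Ndufa4l2 were placed with complex IV, where the Ndufa4 protein resides. The remaining 13 members lie on chrM and are named as in the table, where COX1, COX2 and COX3 are the mitochondrial oxidase subunits and not the cyclooxygenases.

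The control samples were E12.5 testes of the genotype Ppp1r3c f/f, and the cKO samples were E12.5 testes of the genotype Sf1-Cre Ppp1r3c f/f, with 3 samples in each group. The floxed alleles were thus shared by both groups, and the Cre, driven by Sf1 (Nr5a1) sequences, acts in gonadal somatic cells and not in germ cells. Each sample pooled 2 gonad pairs, and poly(A)-selected, stranded libraries were counted per gene. Ppp1r3c encodes a subunit of protein phosphatase 1 that directs the enzyme to glycogen.

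The respiratory chain passes electrons from NADH through complex I to ubiquinone, then through complex III and cytochrome c to complex IV, which reduces oxygen. Protons pumped on the way drive complex V, the ATP synthase. Most subunits are encoded in the nucleus and imported, while a small set of core subunits is transcribed inside the organelle from mitochondrial DNA as long polycistronic RNAs. The assembled complexes therefore draw on both genomes.

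Libraries held between 16139487 counts (control replicate 1) and 44145158 counts. The targeted gene Ppp1r3c was lower in all 3 cKO samples (log2 fold change -2.11, SE 0.111, edgeR FDR 0.000126). Sertoli markers such as Amh were present in every library, at 588 to 920 CPM (counts divided by the scaled library size, so that libraries of unequal depth compare). One library went against its testis label. In cKO replicate 3, Xist, the RNA that coats the inactive X chromosome of XX cells, had 12534 counts, against 6 to 41 counts in the other 5 libraries, and the summed level of 8 pre-granulosa markers was 337 CPM against 132 to 163 CPM. Sry, the Y-linked testis-determining gene, was also detected there, at 2.51 CPM. The main summaries and the members with a low p are also given without this library.

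To determine how far the mitochondrial rows measure their own gene, the chrM transcripts were compared with all annotated nuclear transcripts (GENCODE M21, GRCm38). Nuclear copies of mitochondrial DNA are common in mammalian genomes, and reads from identical stretches cannot be assigned. A block of unprocessed pseudogenes on the minus strand of chromosome 1 carried copies of 7 chrM genes. Identical copies spanned all 678 annotated bases of Gm10925 (ATP6), 681 of Gm28661 (COX2), 783 of Gm28437 (COX3), 294 of Gm10222 (ND4L) and 876 of Gm28439 (ND4). Gm28438 matched ND3 in 344 of 345 bases, and Gm29216 matched the 3′ end of COX1 in 486 of 492 bases. Pairs of 60-base stretches show the extent of the likeness, with differing bases in capitals. ATP6 is from chrM:7927-7986 and Gm10925 from chr1:24614592-24614651, ND3 is from chrM:9459-9518 and Gm28438 from chr1:24613060-24613119, and COX1 is from chrM:6381-6440 and Gm29216 from chr1:24616138-24616197.
ATP6: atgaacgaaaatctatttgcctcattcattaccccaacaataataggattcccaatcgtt
Gm10925: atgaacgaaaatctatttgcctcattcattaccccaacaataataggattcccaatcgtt
ND3: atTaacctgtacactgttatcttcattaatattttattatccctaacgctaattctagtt
Gm28438: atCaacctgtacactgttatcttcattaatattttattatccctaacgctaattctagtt
COX1: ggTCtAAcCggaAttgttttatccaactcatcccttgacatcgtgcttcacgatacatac
Gm29216: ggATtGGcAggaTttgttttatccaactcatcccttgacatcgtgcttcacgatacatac
The ATP6 pair is identical over this stretch. With positions counted from the first base of the mitochondrial gene, ND3 and its copy differed only by T3C. COX1 and Gm29216 differed by T1056A, C1057T, A1059G, A1060G, C1062A and A1066T, all within the first bases of the alignment. Beyond position 1066 the aligned sequences were identical. Whether the bases up to 1066 belong to the copy or to sequence beside it was not tested.

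Most chrM genes with few counts were those with such copies. Of the 100-base windows of each gene, between 97.6% and 99.9% occurred in a nuclear transcript for COX2, COX3, ATP6, ND3 and ND4L. Their control means were between 0.410 and 4.87 CPM per kb of transcript. None of the windows of ND1, ND5 or CYTB was shared, and their control means were 3955, 1997 and 4225 CPM per kb. ND2, with 3.19% shared, stood at 2157 CPM per kb. COX1 with 30.8% and ND4 with 60.8% of windows shared stood at 5887 and 1247 CPM per kb. ND6, encoded on the other strand and with no shared window, stood at 65.0 CPM per kb. ATP8 had no shared window in an annotated transcript and was at 0.532 CPM per kb, although its gene lies between those copied in Gm28661 and Gm10925. The paired-end reads of the study were longer than these windows, so the shares of windows are not shares of reads that cannot be assigned. Sequence outside annotated transcripts was not searched. How multiply aligned reads were handled is not listed among the counting parameters of the study's methods. The rows of COX2, COX3, ATP6, ATP8, ND3 and ND4L are therefore given as uncertain, and the part of the copies in their levels was not tested.

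**Figure D1:**
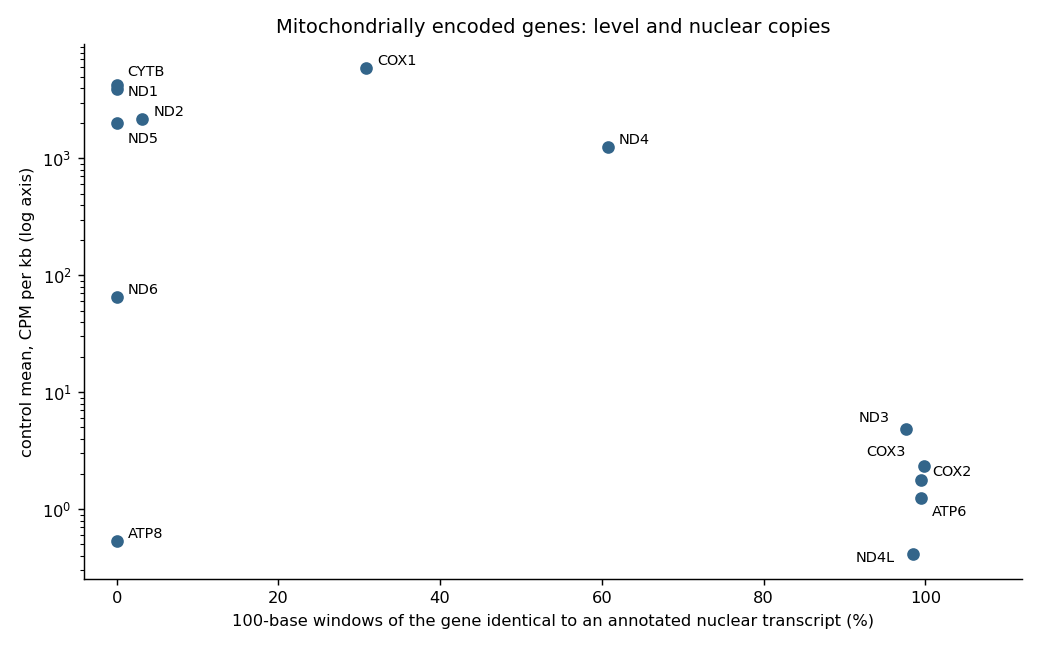
Control mean of each chrM gene in CPM per kb (log axis) against the percentage of its 100-base windows found in an annotated nuclear transcript. Of the 13 genes, the 5 with more than 97% of windows shared lie below 5 CPM per kb, while ND1, ND2, ND4, ND5, CYTB and COX1 lie above 1000 CPM per kb.

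To compare both genomes between cKO and control testes, counts were fitted with edgeR across all 15577 genes that passed the filter on low counts, and p-values were adjusted over all of them (FDR). Of the 104 members, 98 were tested. None of them passed an FDR of 0.05 with edgeR, DESeq2 or limma-voom. Among all genes, edgeR called 6 (0.0385%) and DESeq2 called 111 of the 14243 genes to which it gave an adjusted p (0.779%). At an unadjusted p below 0.05, 10 members were lower in cKO (9 nuclear subunits and Ndufaf4) and 0 were higher, where 5.8% of all genes were lower and 5.56% were higher. The groups did not overlap for 9 tested members, all with the cKO samples below the control samples. This separation was found for 7.17% of all genes, and the opposite one for 8.42%. With pooled gonad pairs as samples, these p-values measure only the spread among the samples sequenced. RNA from whole testes also cannot separate fewer cells of a type from less RNA per cell.

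Nuclear subunits had small negative fold changes in nearly every case, and 7 of the 11 chrM genes tested had positive ones. Of the 78 nuclear subunits tested, 73 (93.6%) had a negative log2 fold change, where 50.9% of all genes did. Their median was -0.11, against -0.0034 for all genes. The medians by complex were -0.11 in complex I (36 of 37 negative), -0.11 in complex III (8 of 8), -0.12 in complex IV (15 of 16) and -0.10 in complex V (14 of 17). Leaving out control replicate 2 moved these medians, in the same order, to -0.043, -0.027, -0.034 and -0.060. Leaving out control replicate 3 gave -0.18, -0.19, -0.20 and -0.15, and leaving out cKO replicate 3 gave -0.13, -0.13, -0.13 and -0.12. Of these subunits 9 (11.5%) had an unadjusted p below 0.05, and 8 (10.3%) did not overlap between the groups. The median of the 11 chrM genes was 0.093, and without cKO replicate 3 it was 0.052, with 6 positive and 5 negative values. COX2, COX3, ATP6 and ND3, whose rows are uncertain, were among these 11. The 6 chrM genes above 1000 CPM had a median of 0.10, with 5 positive values, and no chrM gene had an unadjusted p below 0.05. Without cKO replicate 3, the median was -0.13 for the nuclear subunits, with 76 of the 79 then tested negative, and 0.061 for these 6 chrM genes. In that fit the log2 fold changes of the 10 members with an unadjusted p below 0.05 in the full set were all negative, from -0.31 for Atp5mpl to -0.13 for Cox7a2l, with -0.29 for Cox7c, and none passed an FDR of 0.05.

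**Figure D2:**
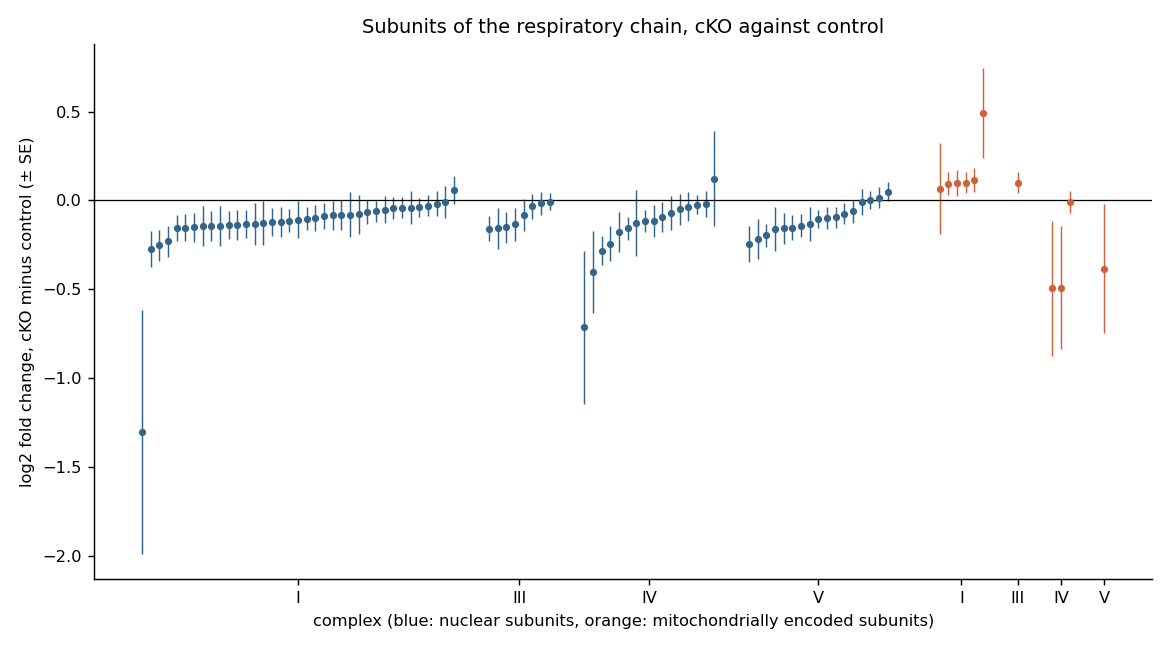
Log2 fold change of each tested subunit, cKO minus control, with its standard error, grouped by complex for nuclear (blue) and mitochondrially encoded (orange) subunits. Nuclear values lie mostly just under 0 (73 of 78 negative), and the 3 chrM genes with the widest negative bars are COX2, COX3 and ATP6.

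The level of the nuclear subunits in single samples did not separate the groups. The level of a list was the median of its genes after each gene's log2 CPM had been centred on the mean of the control samples. For the nuclear subunits it was 0.022, 0.11 and -0.13 in control replicates 1 to 3, and -0.11, -0.14 and -0.067 in cKO replicates 1 to 3. Control replicate 3 thus lay among the cKO samples, and control replicate 2 was the highest of all. The count of subunits with an unadjusted p below 0.05 and lower in cKO was 41 when control replicate 3 was left out, with a median of -0.18. Leaving out control replicate 2 gave 4 such subunits and a median of -0.044, and leaving out control replicate 1 gave 5 and -0.099. The share of all genes at this p is not given for these fits, so their counts have no background to be set beside. The 4 complexes shared this order of samples in part, with control replicate 2 highest in each and control replicate 3 lowest in complexes III and IV.

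**Figure D3:**
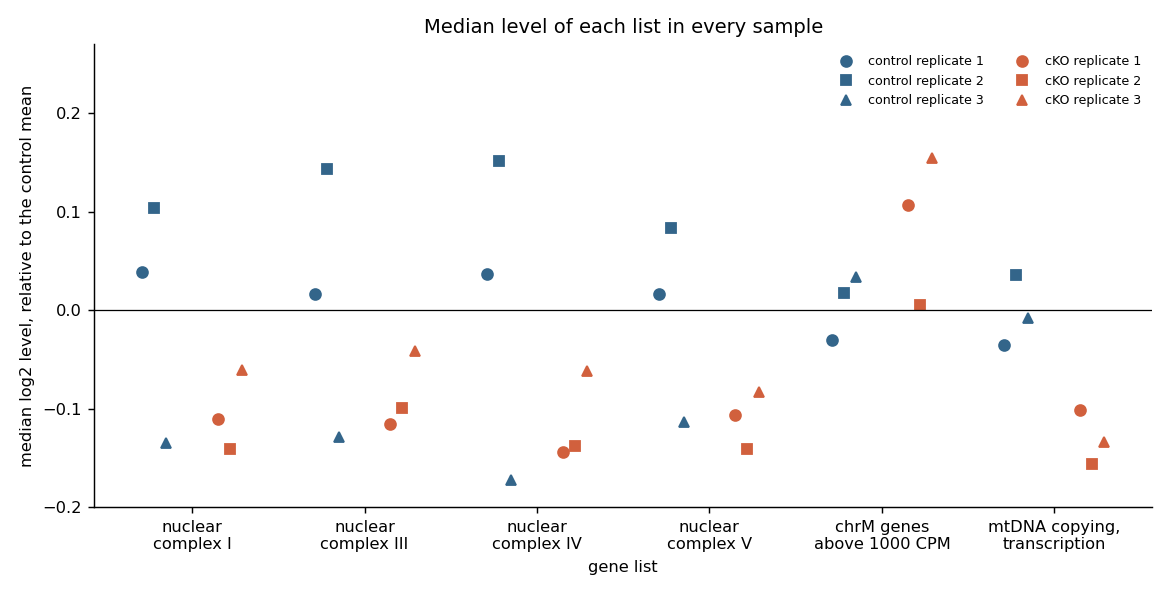
Median log2 level of each gene list in every sample, relative to the control mean (blue: control, orange: cKO, circle, square and triangle: replicates 1, 2 and 3). In the nuclear complexes control replicate 3 lies with the cKO samples, whereas in the list for copying and transcription of mitochondrial DNA all 3 cKO samples (-0.10 to -0.16) lie below the 3 control samples (-0.035 to 0.036).

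Complex I, the NADH dehydrogenase, is the largest of the complexes. The 3 nuclear subunits of complex I with the lowest p were all accessory subunits. Ndufs6, a zinc-binding subunit of the matrix arm, was at 42.0, 50.4 and 40.2 CPM in control and 37.5, 36.2 and 37.8 CPM in cKO samples. Its groups did not overlap, and its log2 fold change was -0.25 (SE 0.088, edgeR FDR 0.380). Ndufa1, an X-linked subunit of the membrane arm, was at 23.8, 22.9 and 18.7 CPM in control and 18.3, 18.1 and 17.5 CPM in cKO samples, again without overlap (log2 fold change -0.27, SE 0.10, edgeR FDR 0.386). For this gene control replicate 3 lay within 1 CPM of cKO replicates 1 and 2. Ndufb9, an accessory subunit of the membrane arm, had 72.7, 73.6 and 59.8 CPM in control and 61.1, 55.8 and 58.4 CPM in cKO samples. Here control replicate 3 fell inside the cKO range (log2 fold change -0.23, SE 0.087, edgeR FDR 0.389). The highest value of its nuclear members was that of Ndufv3, an accessory subunit of the NADH-oxidising module (log2 fold change 0.058, SE 0.078, FDR 0.810). The lowest was that of Ndufb11b, a gene near the limit of detection at 0.246, 0.453 and 0.732 CPM in control and 0.150, 0.0278 and 0.454 CPM in cKO samples (log2 fold change -1.31, SE 0.688, FDR 0.495).

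The mitochondrially encoded core subunits of complex I differed widely in level per length. ND1, ND2, ND4 and ND5 (1247 to 3955 CPM per kb) stood above the control median of 58.8 CPM per kb of the 37 nuclear subunits, ND6 was near it and ND3 and ND4L, whose rows are uncertain, were below it. ND1, which borders the ubiquinone site, was at 3548, 3876 and 3930 CPM in control and 4165, 3826 and 4313 CPM in cKO samples, with a log2 fold change of 0.12 (SE 0.068, FDR 0.538). Of the cKO samples only replicate 2 overlapped the control range. The log2 fold changes of ND2, ND4 and ND5, which form proton-pumping channels of the membrane arm, were 0.093 (SE 0.065), 0.10 (SE 0.057) and 0.099 (SE 0.073), with FDR of 0.603, 0.527 and 0.625. ND6 had the largest positive value, 0.49 (SE 0.252, FDR 0.485). It was at 18.2, 35.8 and 47.1 CPM in control and 51.0, 50.6 and 43.5 CPM in cKO samples. Control replicate 1, with 296 counts, lay far below the others, and the cause was not tested. Without that replicate the log2 fold change of ND6 was 0.22. ND3 was at 1.42, 2.04 and 1.63 CPM in control and 1.65, 1.45 and 2.33 CPM in cKO samples (log2 fold change 0.065, SE 0.256, FDR 0.943), and turned to -0.16 without cKO replicate 3. ND4L did not pass the filter, with 0, 14 and 2 counts in control and 1, 1 and 0 counts in cKO samples.

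The complex I assembly factors, which build the complex but are not part of it, had a median of -0.12, with 7 of 8 negative. Ndufaf4 was at 28.9, 32.7 and 31.3 CPM in control and 28.6, 24.1 and 23.9 CPM in cKO samples. Its groups did not overlap, although cKO replicate 1 lay just under control replicate 1 (log2 fold change -0.28, SE 0.089, edgeR FDR 0.377). Ndufaf6 and Ndufaf2 had log2 fold changes of -0.24 (SE 0.197, FDR 0.664) and -0.12 (SE 0.10, FDR 0.662), and Ndufaf3 one of 0.022 (SE 0.172, FDR 0.975). The value of Ndufaf6 was -0.052 without cKO replicate 2, and that of Ndufaf2 was -0.034 without control replicate 2. The pseudogene Ndufs5-ps was at 3.57, 5.64 and 3.25 CPM in control and 3.22, 0.667 and 3.90 CPM in cKO samples, with overlapping groups (log2 fold change -0.69, SE 0.493, FDR 0.610).

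Complex III, the cytochrome bc1 complex, is built around mitochondrial CYTB. CYTB was at 4710, 4794 and 4994 CPM in control and 5202, 4948 and 5380 CPM in cKO samples. Only cKO replicate 2 fell within the control range, and the log2 fold change was 0.099 (SE 0.059, FDR 0.544). Among the nuclear subunits, Uqcrh, the hinge protein that contacts cytochrome c1, had 127, 136 and 114 CPM in control and 110, 113 and 115 CPM in cKO samples. The highest cKO sample was just above control replicate 3 (log2 fold change -0.16, SE 0.069, edgeR FDR 0.432). Uqcrb and Uqcrq, both small accessory subunits, had log2 fold changes of -0.15 (SE 0.086, FDR 0.524) and -0.14 (SE 0.095, FDR 0.602). The core protein Uqcrc1 stood at 163, 164 and 161 CPM in control and 161, 156 and 168 CPM in cKO samples, with a log2 fold change of -0.0069 (SE 0.050, FDR 0.974).

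Complex IV, cytochrome c oxidase, held the nuclear subunit with the lowest p of all members, Cox7c (mm10, chr13:86044798-86046795, minus strand). This small membrane subunit was at 102, 109 and 93.9 CPM in control and 90.6, 75.7 and 84.9 CPM in cKO samples. All cKO samples lay below all controls, with a log2 difference of -0.28 (SE 0.082, edgeR FDR 0.377). Cox7a2, the widely expressed partner of the muscle form Cox7a1, had 80.8, 93.5 and 75.3 CPM in control and 75.5, 62.1 and 73.2 CPM in cKO samples, with slight overlap (log2 fold change -0.25, SE 0.099, edgeR FDR 0.409). Cox7a2l, a relative of Cox7a2, had 123, 117 and 106 CPM in control and 104, 106 and 100 CPM in cKO samples. Only cKO replicate 2 reached the lowest control sample (log2 fold change -0.16, SE 0.066, edgeR FDR 0.418).

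Mitochondrial COX1, the catalytic subunit of complex IV, was the member with the highest level. It was at 8842, 9345 and 9099 CPM in control and 9114, 8655 and 9345 CPM in cKO samples, with a log2 fold change of -0.0091 (SE 0.060, FDR 0.970). The groups overlapped throughout. The other high chrM genes were also set against COX1 in the same library. The ratio of ND1 to COX1 was 0.401, 0.415 and 0.432 in control and 0.457, 0.442 and 0.462 in cKO samples, and the ratio of CYTB to COX1 was 0.533, 0.513 and 0.549 in control and 0.571, 0.572 and 0.576 in cKO samples. Ratios of ND2 and of ND4 to COX1 were likewise higher in each cKO than in each control sample, while those of ND5 overlapped. These ratios share one denominator, 30.8% of whose windows have a nuclear copy, and were chosen after the values were seen, so they are given without a test. Mitochondrial COX2 was at 1.54, 1.22 and 0.903 CPM in control and 1.02, 0.417 and 1.09 CPM in cKO samples, and COX3 at 2.77, 1.49 and 1.20 CPM in control and 1.60, 1.06 and 1.03 CPM in cKO samples. Both overlapped between groups, with log2 fold changes of -0.49 (SE 0.381, FDR 0.640) and -0.49 (SE 0.346, FDR 0.603). The value of COX3 was -0.13 without control replicate 1.

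Several complex IV subunits exist as paired isoforms, a common form and one confined mostly to a few tissues. Cox4i1 dominated over Cox4i2, a form known from lung and low oxygen, with ratios of CPM from 0.0052 to 0.0078 for Cox4i2 over Cox4i1 in the 6 libraries. Their log2 fold changes were -0.024 (SE 0.053, FDR 0.897) and 0.12 (SE 0.268, FDR 0.896). Cox6b2, known as a testis form, was detected well below Cox6b1, at 14.3, 16.8 and 10.7 CPM in control and 12.0, 10.6 and 15.7 CPM in cKO samples. The groups overlapped for both, with log2 fold changes of -0.13 (SE 0.187, FDR 0.829) for Cox6b2 and -0.069 (SE 0.095, FDR 0.814) for Cox6b1. Cox7a1 was at 2.89, 3.58 and 2.64 CPM in control and 2.17, 2.92 and 1.82 CPM in cKO samples (log2 fold change -0.40, SE 0.229, FDR 0.524). Ndufa4l2, a partner of Ndufa4 that responds to low oxygen, was at 2.65, 0.679 and 1.63 CPM in control and 0.823, 1.03 and 0.998 CPM in cKO samples. The control samples spanned the cKO samples here, and the log2 fold change of -0.72 (SE 0.432, FDR 0.550) compares with -0.051 (SE 0.086, FDR 0.857) for Ndufa4. The common forms Cox6a1, Cox6c, Cox7b and Cox8a had log2 fold changes of -0.035 (SE 0.080), -0.12 (SE 0.062), -0.18 (SE 0.114) and -0.021 (SE 0.073), with FDR of 0.897, 0.493, 0.572 and 0.934. The value of Cox7b was -0.044 without control replicate 2.

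The isoform genes Cox6a2, Cox8b, Cox7b2 and Cox8c did not pass the filter. Cox6a2 and Cox8b, forms of striated muscle, had at most 2 counts in any library. Cox7b2, a testis form, had 2, 13 and 9 counts in control and 8, 9 and 3 counts in cKO samples. Cox8c, also described from testis, had 1, 5 and 5 counts in control and 0 in each cKO sample. All cKO samples thus lay below all controls, and the gene was not tested. A library with 0 counts allows up to 3, counting error only, and control replicate 1 lay within that limit.

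Complex V makes ATP from the proton gradient. Atp5b, the catalytic beta subunit and the most abundant nuclear member, was at 1156, 1283 and 1170 CPM in control and 1146, 1078 and 1145 CPM in cKO samples. The groups just failed to overlap, with a log2 fold change of -0.099 (SE 0.060, FDR 0.550). Atp5k, subunit e of the membrane domain, was at 50.1, 52.7 and 48.0 CPM in control and 45.8, 42.8 and 43.1 CPM in cKO samples. It too was lower in every cKO than in every control sample (log2 fold change -0.20, SE 0.065, edgeR FDR 0.377). Atp5mpl, a small proteolipid of the same domain, had 60.4, 65.2 and 49.9 CPM in control and 45.8, 48.6 and 53.5 CPM in cKO samples, with overlap through control replicate 3 (log2 fold change -0.25, SE 0.103, edgeR FDR 0.418). In the central stalk, Atp5e had a log2 fold change of -0.16 (SE 0.070, FDR 0.442) and Atp5d one of 0.049 (SE 0.055, FDR 0.757).

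The rotating ring of complex V is made of subunit c, for which Atp5g1, Atp5g2 and Atp5g3 encode the same mature protein. Atp5g3 was the most abundant of them at 213, 232 and 190 CPM in control and 207, 204 and 220 CPM in cKO samples, with overlap and a log2 fold change of -0.0091 (SE 0.073, FDR 0.976). Atp5g2 was at 58.3, 60.3 and 54.3 CPM in control and 50.6, 51.7 and 54.3 CPM in cKO samples, without overlap by a margin of less than 1 CPM (log2 fold change -0.14, SE 0.066, FDR 0.447). Atp5g1 had a log2 fold change of -0.13 (SE 0.094, FDR 0.603), with overlapping groups. Mitochondrial ATP6, part of the proton channel, was at 1.29, 0.656 and 0.586 CPM in control and 0.673, 0.556 and 0.575 CPM in cKO samples (log2 fold change -0.38, SE 0.363, FDR 0.705), and its log2 fold change was -0.044 without control replicate 1. ATP8 did not pass the filter, with 3 counts in each control sample and 5, 7 and 2 counts in cKO samples.

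**Figure D4:**
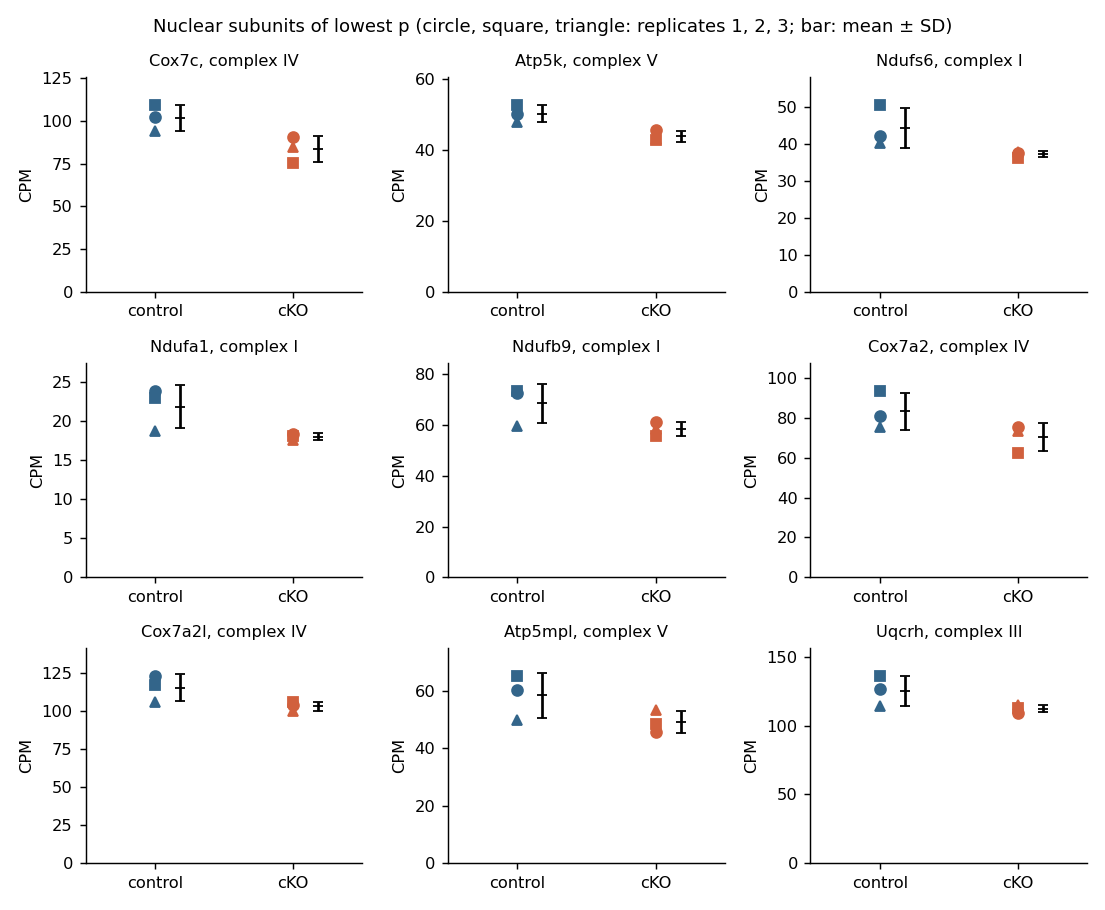
CPM of the 9 nuclear subunits with an unadjusted p below 0.05 in each sample (circle, square and triangle: replicates 1, 2 and 3; bar: mean ± SD, n = 3). Log2 fold changes lie between -0.28 and -0.16, and control replicate 3 (triangle) is the lowest control in every panel.

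Within a library, the balance between both genomes was described by the share of counts. The 13 chrM genes took 2.47%, 2.57% and 2.58% of all counts in control and 2.68%, 2.51% and 2.74% in cKO samples (2.54% ± 0.059 and 2.64% ± 0.114, SD, n = 3). The nuclear subunits took 0.810%, 0.860% and 0.751% in control and 0.758%, 0.745% and 0.773% in cKO samples. Both shares overlapped between groups. The log2 ratio of the mitochondrial to the nuclear sum was 1.61, 1.58 and 1.78 in control and 1.82, 1.76 and 1.82 in cKO samples, so that control replicate 3 again lay with the cKO samples.

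Nuclear subunits are encoded by short mRNAs, and short transcripts of other genes had a similar distribution over the samples. Of the 78 tested subunits, 54 had a transcript under 1000 bases. The 911 other genes with a transcript of this length had a median log2 fold change of -0.070, with 67.3% negative, and the 7128 other genes with 3000 bases or more had a median of 0.017, with 44.3% negative. In single samples the short other genes were at 0.038, 0.070 and -0.11 in control and -0.10, -0.075 and -0.062 in cKO replicates, the same high control replicate 2 and low control replicate 3 as in the short subunits (0.037, 0.12 and -0.16 in control and -0.13, -0.14 and -0.068 in cKO replicates). The 24 subunits with a transcript of 1000 bases or more had a median log2 fold change of -0.070, with 22 negative, and their levels were 0.0066, 0.072 and -0.094 in control and -0.078, -0.10 and -0.041 in cKO replicates. From 500 to 1000 bases, the median was -0.12 for 44 subunits and -0.069 for 815 other genes, and from 1500 to 2000 bases it was -0.057 for 10 subunits and -0.013 for 1779 other genes. Across genes, which are not independent, the Spearman correlation of length with log2 fold change was 0.147 over all genes and 0.433 over the nuclear subunits. The part of transcript length in the values of the subunits was not tested.

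**Figure D5:**
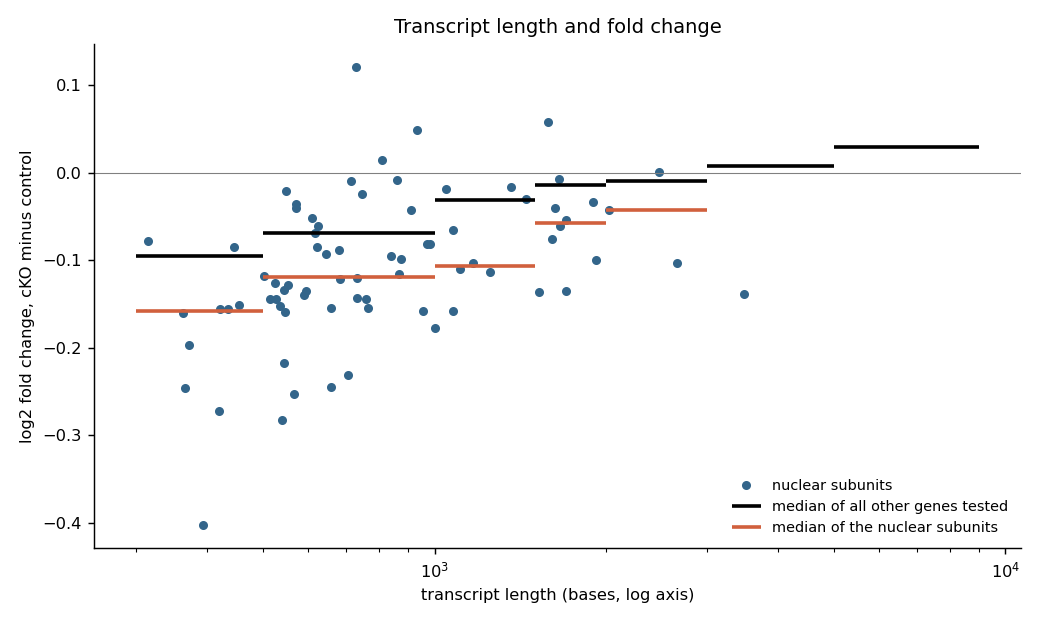
Log2 fold change, cKO minus control, against transcript length (log axis, bases) for the nuclear subunits (points, 2 with values below -0.5 not drawn), with the median of the subunits (orange, bins of at least 3) and of all other genes (black) in each length bin. Both medians rise with length, from -0.16 and -0.095 under 500 bases to -0.057 and -0.013 between 1500 and 2000 bases. The median of the other genes lies above 0 in the longest bins, at 0.0076 from 3000 to 5000 bases and 0.029 from 5000 bases.

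Germ cell markers were mostly lower in the cKO libraries, but the level of the list overlapped between groups through control replicate 1. Of 21 germ cell markers tested, all 21 had a negative log2 fold change, and the median was -0.80. Of these markers 19 had an unadjusted p below 0.05, where 5.8% of all genes did and were lower. None passed an FDR of 0.05 with edgeR, and 2 passed with DESeq2. The level of this list was -0.43, 0.22 and 0.23 in control and -0.37, -1.34 and -0.74 in cKO replicates, and the summed CPM ranged from 842 to 1361 in control and from 457 to 889 in cKO samples. Control replicate 2 was high and cKO replicate 2 lowest in both germ cell markers and nuclear subunits (0.11 and -0.14 in the latter). Control replicate 3 was high in germ cell markers and low in nuclear subunits, and control replicate 1 was low in germ cell markers and near the control mean in nuclear subunits. Without cKO replicate 3, 18 of the 21 markers had an unadjusted p below 0.05 and were lower, with a median of -0.83. Of the 8 pre-granulosa markers, 5 had an unadjusted p below 0.05 and were higher in cKO, where 5.56% of all genes were, and none passed an FDR of 0.05. The levels of this list were 0.032, 0.13 and -0.16 in control and 0.21, 0.21 and 1.37 in cKO replicates, so that cKO replicate 3, the library with Xist, stood far above the rest. Without it 1 of the 8 had an unadjusted p below 0.05. Of the 14 Sertoli markers 4 had an unadjusted p below 0.05 and were higher, where 5.56% of all genes were. Summed levels of the 14 were 2793 to 3364 CPM in control and 2987 to 3536 CPM in cKO samples. Wt1 passed an FDR of 0.05 with DESeq2. It was at 337, 350 and 315 CPM in control and 385, 381 and 449 CPM in cKO samples. Without cKO replicate 3, 4 Sertoli markers had such a p and were higher, and none passed with DESeq2. In that fit 680 of all 15866 genes tested were lower and 562 higher at this p. The part of these cell types and of germ cell content in the values of the respiratory chain was not tested.

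Genes of connected pathways were read from the same fit. The list of complex II, which feeds electrons from succinate (Sdha, Sdhb, Sdhc and Sdhd), and the cytochromes c held the cytochrome c genes Cycs and Cyct and also Cyc1, the cytochrome c1 subunit of complex III that the prefixes did not take in. It had a median of -0.077, with 7 of 7 negative and 1 unadjusted p below 0.05, where 5.8% of all genes had such a p and were lower. The gene with that p was Cyct, the cytochrome c of testicular germ cells, at 6.28, 10.8 and 11.1 CPM in control and 6.03, 3.11 and 3.99 CPM in cKO samples. All cKO samples were below all controls (log2 fold change -1.12, SE 0.272, edgeR FDR 0.377), and it passed an FDR of 0.05 with DESeq2. Without cKO replicate 3 its log2 fold change was -1.06, and it no longer passed with DESeq2. Assembly factors of the complexes that lie outside the prefixes had a median of -0.011, with 25 of 43 negative and 0 unadjusted p below 0.05, and the lowest p was that of Sdhaf4, which matures complex II (log2 fold change -0.22, SE 0.108, FDR 0.472).

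The proteins that copy and transcribe mitochondrial DNA are nuclear genes as well. Of 17, 14 had a negative log2 fold change, 4 had an unadjusted p below 0.05 and were lower (5.8% of all genes), 0 were higher, and 7 did not overlap between groups, all with lower cKO samples (7.17% of all genes). The median was -0.13, and without cKO replicate 3 it was -0.14, with 3 such genes. Tefm, the elongation factor of mitochondrial transcription, was at 15.7, 14.9 and 15.0 CPM in control and 11.3, 11.1 and 11.1 CPM in cKO samples. Both groups were tight and well apart (log2 fold change -0.44, SE 0.086, edgeR FDR 0.377), and Tefm passed an FDR of 0.05 with DESeq2. Without cKO replicate 3 its log2 fold change was -0.44, and it no longer passed. The genes that process and stabilise mitochondrial mRNAs had a median of -0.13, with 18 of 21 negative. They included 1 gene with an unadjusted p below 0.05 and 4 non-overlapping lower genes, beside the same 5.8% and 7.17% of all genes, the lowest p being that of Ptcd2, a pentatricopeptide protein of mitochondrial RNA (log2 fold change -0.19, SE 0.067, edgeR FDR 0.380). Transcriptional regulators of mitochondrial genes had a median of 0.071, with 9 of 12 positive. At an unadjusted p below 0.05, 2 were lower (5.8% of all genes) and 2 were higher (5.56% of all genes). The groups did not overlap for 2 of them, both with higher cKO samples (8.42% of all genes). Ppara, a nuclear receptor of fatty acid oxidation, had the lowest p, at 9.91, 9.76 and 8.98 CPM in control and 11.5, 12.8 and 19.5 CPM in cKO samples, the last being the library with Xist (log2 fold change 0.61, SE 0.183, edgeR FDR 0.377). Without that library the log2 fold change of Ppara was 0.36.

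Promoters of the nuclear subunits were searched for short motifs of factors known to act on such genes. RefSeq promoters (GRCm38.p6, 250 bases before to 50 bases after the start) matched 67 of the 82 nuclear subunits and 18204 genes of the table. The YY1 motif AAGATGGC, on either strand, was in 10 of the 67 (14.9%) and in 3.6% of all these genes, which were not filtered for expression. It was in 7 of 33 complex I promoters (21.2%) and 3 of 15 complex V promoters (20%). In complexes III and IV it was in 0 of 5 and 0 of 14 promoters. The NRF1 motif GCATGCGC was in 9 of 67 (13.4%) against 3.96%, and an ETS motif, ACTTCCGG, in 5 of 67 (7.46%) against 5.67%. The YY1 and NRF1 motifs were thus in a larger share of these promoters than of all, and the ETS motif in a similar share. The promoters of a pair of members with a low p are shown with the motif in capitals. Ndufs6 (minus strand, chr13:73328433-73328732) held the YY1 motif downstream of its start, near the end of the window. Atp5k (minus strand, chr5:108434350-108434649) held the NRF1 motif on both strands.
Ndufs6: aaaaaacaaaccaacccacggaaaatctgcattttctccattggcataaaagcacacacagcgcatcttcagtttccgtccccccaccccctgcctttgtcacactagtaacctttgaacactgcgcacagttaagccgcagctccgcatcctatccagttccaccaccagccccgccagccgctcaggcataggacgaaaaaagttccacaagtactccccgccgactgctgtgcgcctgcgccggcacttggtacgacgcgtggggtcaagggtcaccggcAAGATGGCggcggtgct
Atp5k: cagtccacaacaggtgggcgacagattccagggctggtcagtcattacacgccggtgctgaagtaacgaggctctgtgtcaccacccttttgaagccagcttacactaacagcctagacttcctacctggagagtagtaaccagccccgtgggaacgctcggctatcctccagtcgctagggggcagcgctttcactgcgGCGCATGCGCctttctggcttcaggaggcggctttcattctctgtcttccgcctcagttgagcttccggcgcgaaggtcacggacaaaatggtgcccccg
The promoter of Cox7c held none of the 3 motifs. A match describes the letters in this window and not binding of the factor.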

How the data were processed

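Testis RNA of 6 samples (3 control, 3 cKO, 2 gonad pairs each) was sequenced. The authors deposited raw read counts per gene, without normalization. Per the labels, reads were aligned to mm10 with STAR 2.5 and counted with featureCounts (Subread 1.5.0-p1); the study's methods give reverse-stranded counting of RefSeq genes. Groups and replicate numbers were taken from sample titles. No column of sample values was left unused.

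Counts were fitted in R 4.3.3 with edgeR 4.0.16 (filterByExpr with a minimum count of 10, TMM, quasi-likelihood F-test between cKO and control, Benjamini-Hochberg over 15577 genes). SE were derived from the F statistic. CPM were scaled by TMM, with a prior count of 2 on the log2 scale. Alternatives were DESeq2 1.42.0 (the authors' tool), limma-voom (limma 3.58.1), RLE size factors, scaling without chrM, no filter, a stricter filter (3 samples with a CPM of 1 or more), libraries thinned to 16139487 counts, a replicate block, and each sample left out. Scripts were tested on simulated data with 200 changed genes. DESeq2 without cKO replicate 3, and the pathway and marker lists without that library, were added after the data were seen. Members and lists were chosen with earlier results of these data known.

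Named genes were all chrM genes, the 3 members of lowest p and those of highest and lowest log2 fold change in each nuclear complex and among the assembly factors, the isoform sets, the most abundant member of each complex, members not tested, and the gene of lowest p in each pathway list. A gene that this rule names is not reported here. Others are named for their promoter or function and were chosen after values were seen. Transcript lengths were those of 1 GENCODE M21 transcript per gene (95.3% of tested genes). Every pair of libraries differed by more than sampling noise (chi-square per degree of freedom 6.87 to 29.2). Same-numbered samples did not deviate together (correlations -0.20, -0.27 and -0.13), so the numbers were not taken as pairs.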

Additional observations from a re-analysis of the deposited data

How the results depend on the processing

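No member passed an FDR of 0.05 under any alternative. The number of genes called among all genes was 6, and it was 111 with DESeq2, 14 with DESeq2 without cKO replicate 3, 3 with the replicate block, and 2 to 8 when single samples were left out. The median of the nuclear subunits stayed negative in all fits. It was between -0.11 and -0.10 with other tools, filters and scalings on all samples. When single samples were left out it was between -0.18 and -0.044, and DESeq2 without cKO replicate 3 gave -0.13. The number of nuclear subunits with an unadjusted p below 0.05 and lower in cKO was 9. It was 5 under the replicate block and 4 to 41 when single samples were left out. The share of all genes at this p is given only for the full set and without cKO replicate 3. The median of the assembly factors was between -0.16 and -0.038 when single samples were left out. The difference in the mitochondrial share of counts was 0.102 percentage points, 0.108 relative to nuclear counts, and 0.056 to 0.166 when single samples were left out.

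Some values near 0 turned their sign. Thinned libraries gave 0.0083 for Uqcrc1 and 0.0098 for Cox8a, and DESeq2 without cKO replicate 3 gave -0.15 for ND3 and -0.081 for Cox4i2. Leaving out single samples gave ranges of -0.16 to 0.21 for ND3, -0.034 to 0.021 for COX1, -0.014 to 0.12 for Ndufv3, -0.035 to 0.019 for Uqcrc1, -0.085 to 0.27 for Cox4i2, -0.057 to 0.0091 for Cox4i1, -0.16 to 0.19 for Ndufaf3, -0.13 to 0.037 for Cox6a1, -0.18 to 0.017 for Cox6b1, -0.30 to 0.032 for Cox6b2, -0.091 to 0.031 for Cox8a, -0.15 to 0.022 for Ndufa4 and -0.088 to 0.053 for Atp5g3. The cause was not tested.

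The shallowest library, control replicate 1, limits the precision of the rows with few counts, COX2, COX3, ATP6, ATP8, ND3, ND4L, Cox7b2 and Cox8c. The level of the nuclear subunits spread over 0.11 to -0.13 among the 3 controls, and no subunit with a log2 difference near the medians was called.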
